A study of Mus musculus with 16 samples.

Results

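The genes described here are 10 heat shock genes and chaperones, of 16243 genes present in each of the 9 deposited matrices of CD8+ T cells from kidney allografts and spleens. They were chosen by name, with their levels in these matrices known, and the same choice set 4 stress-inducible genes (Hspa1a, Hspa1b, Dnajb1, and Hsph1) against 4 growth-linked genes (Hspd1, Hspe1, Hsp90ab1, and Cct3). Hsp90aa1 and Hspa8 belong to neither of these groups. Levels of the 10 genes between tissues and times are therefore given as a description, without a test. Tests between the same groups are given for other genes, and tests of the 10 genes are given for cells and contrasts that the choice did not use.

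CD45+ cells were sorted from kidneys and spleens of untreated male mice and profiled by droplet scRNA-seq, which counts the 3′ ends of mRNAs by unique molecular identifiers (UMIs). The accepted grafts were DBA/2J kidneys in B6 (C57BL/6J) recipients, taken with the recipient's spleen at 1, 3, and 24 weeks after transplantation. The rejecting grafts were B6 kidneys in DBA/2J recipients, taken with the spleen at 1 week, and the controls were spleens of naive B6 mice. Accepted grafts were kept without immunosuppressive drugs, and the study names no such drug for the rejecting grafts. Ages were not given in the sources used here. The labels give C57BL/6J as the strain of every sample, whereas the study's methods give DBA/2J as the recipient strain of rejecting grafts.

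Kidneys were perfused and digested with collagenase A and DNase I before the sort, whereas spleens were ground and treated with ACK lysis buffer. Tissue and digestion cannot be told apart in any comparison of kidney with spleen. The barcodes carry tags for 32 libraries with 72639 cells. There were 3 libraries at 1 week, 5 at 3 weeks, and 3 at 24 weeks in each accepted tissue, 2 from rejecting kidneys, 3 from rejecting spleens, and 5 from naive spleens. Libraries held 56 to 8407 cells and 153266 to 25960721 UMIs. In the accepted spleens of 1 and 3 weeks, 41.9% to 51.8% of cells had a Cd8a or Cd8b1 UMI, compared with 83.5% to 97.0% in accepted kidneys of these times, so those spleen matrices also held other cells.

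The 24-week libraries were unlike earlier libraries with the same tissue label, and the cause was not tested. In those labelled kidney, 46.2% to 49.2% of cells had a CD8 UMI, as in the earlier spleens, and in those labelled spleen 93.4% to 95.3% did, as in the earlier grafts. RNA of 8 kidney parenchyma genes summed to 4.29 to 14.8 CPM (UMI counts scaled to a common library total) in the 3 libraries labelled kidney and to 21.7 to 26.1 CPM in the 3 labelled spleen. This sum did not mark kidney at every time, since it was higher in kidney at 3 weeks (19.5 to 22.3 and 8.96 to 16.8 CPM) and lower in kidney at 1 week (6.45 to 11.3 and 39.9 to 60.6 CPM). The 24-week libraries were therefore compared with no other group by a test or log2 ratio, although as members of the fit of all 9 groups they add to the estimate of the spread. They are included in the order of the group levels and in the correlations across libraries.

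Heat shock proteins are chaperones that bind unfolded proteins and help them fold, refold, or be degraded. The inducible members are switched on by the transcription factor HSF1, which binds repeats of GAA and TTC called heat shock elements. Constitutive chaperones are made in all cells and increase when cells grow and divide. Among the stress-inducible genes, Hspa1a and Hspa1b encode near-identical inducible HSP70 proteins, Dnajb1 encodes the HSP40 that delivers clients to HSP70, and Hsph1 encodes HSP110, which exchanges the nucleotide of HSP70. Among the growth-linked genes, Hspd1 and Hspe1 encode HSP60 and HSP10, which together form the folding chamber of mitochondria. Hsp90ab1 encodes the constitutive HSP90, and Cct3 a subunit of the CCT/TRiC chaperonin, which folds actin and tubulin. Hsp90aa1 encodes the inducible HSP90, and Hspa8 the constitutive HSC70.

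Hspa1a (chr17:34969190-34972156) and Hspa1b (chr17:34956436-34959238) lie next to each other on the minus strand, in GENCODE release M21 of GRCm38, the assembly also called mm10. Neither has an annotated intron. Their promoters are shown because they are much alike, with 3 differences over the 250 bases before the start site and 1 in the 150 bases printed, while their UMIs were not in a fixed ratio (below). The start sites are 12918 bases apart. Capitals mark the GAANNTTC match described next. The sequences are from RefSeq (GRCm38.p6), 5′ to 3′ on the minus strand, at chr17:34972157-34972306 for Hspa1a and chr17:34959239-34959388 for Hspa1b.

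Hspa1a: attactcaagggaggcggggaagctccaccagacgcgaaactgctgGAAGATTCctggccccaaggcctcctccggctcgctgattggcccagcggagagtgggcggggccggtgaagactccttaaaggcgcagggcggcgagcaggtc

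Hspa1b: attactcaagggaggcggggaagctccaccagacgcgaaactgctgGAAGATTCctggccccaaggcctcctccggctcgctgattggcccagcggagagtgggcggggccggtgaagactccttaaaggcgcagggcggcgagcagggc

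A heat shock element of 3 units was searched as GAANNTTCNNGAA or TTCNNGAANNTTC, and one of 2 units as GAANNTTC or TTCNNGAA, which reads the same on both strands and lies within every match of 3 units. The windows ran from 250 bases before to 50 bases after each RefSeq start. The 3-unit element was present in 0.603% and the 2-unit element in 15.1% of the 32851 windows of all genes. Windows were found for 7 of the 10 genes (Hspa1a, Hspa1b, Dnajb1, Hsph1, Hspd1, Hspe1, and Cct3). Hspa1a and Hspa1b each had a single 2-unit match, 104 bases before the start. The windows of Dnajb1 and Cct3 had no match of either kind.

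The 3-unit element was present in the windows of the mitochondrial pair Hspd1 and Hspe1 and of Hsph1. Hspd1 (chr1:55077835-55088243, minus strand) and Hspe1 (chr1:55088132-55091307, plus strand) are transcribed away from each other, and the same element was counted for both. It began 89 bases before the Hspe1 start and, on the other strand, 144 bases before 1 of 2 RefSeq starts of Hspd1. The annotation places this stretch in the untranslated part of a longer Hspd1 transcript. In Hsph1 (chr5:149614287-149636376, minus strand), the element began 15 or 36 bases after the start, depending on which of 2 RefSeq starts is used. The stretches are at chr1:55088053-55088082, plus strand, and chr5:149636280-149636308, minus strand, with the matches in capitals. A match of letters is a description of the sequence and not a measured binding site.

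Hspe1: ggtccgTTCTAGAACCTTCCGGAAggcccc

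Hsph1: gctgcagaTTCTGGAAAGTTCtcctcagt

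In CD8+ T cells of accepted kidneys, the 4 stress-inducible genes were higher at 3 weeks than at 1 week, and the 4 growth-linked genes were not. Hspa1a had 145, 251, and 206 CPM in the 3 libraries of 1 week and 777, 511, 517, 512, and 668 CPM in the 5 libraries of 3 weeks. The groups did not overlap, and the lowest library of 3 weeks had 511 CPM. Hspa1b had 103, 193, and 126 CPM at 1 week and 1019.8, 707, 643, 670 and 896 CPM at 3 weeks. This was the widest difference of the 10 genes, with a log2 ratio of 2.49 ± 0.26 (SE) compared with 1.57 ± 0.24 for Hspa1a.

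The co-chaperone Dnajb1 had 98.8, 147, and 122 CPM at 1 week and 375, 310.0, 299, 317, and 432 CPM at 3 weeks, a log2 ratio of 1.50 ± 0.18. Hsph1 had 73.7, 89.4, and 98.8 CPM at 1 week and 353, 206, 240.2, 176, and 266 CPM at 3 weeks, a log2 ratio of 1.51 ± 0.35. In both genes the lowest library of 3 weeks stood above the highest of 1 week. Library 1 was the highest of the 5 libraries of 3 weeks for Hspa1a, Hspa1b, and Hsph1, and library 5 for Dnajb1.

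**Figure D1:**
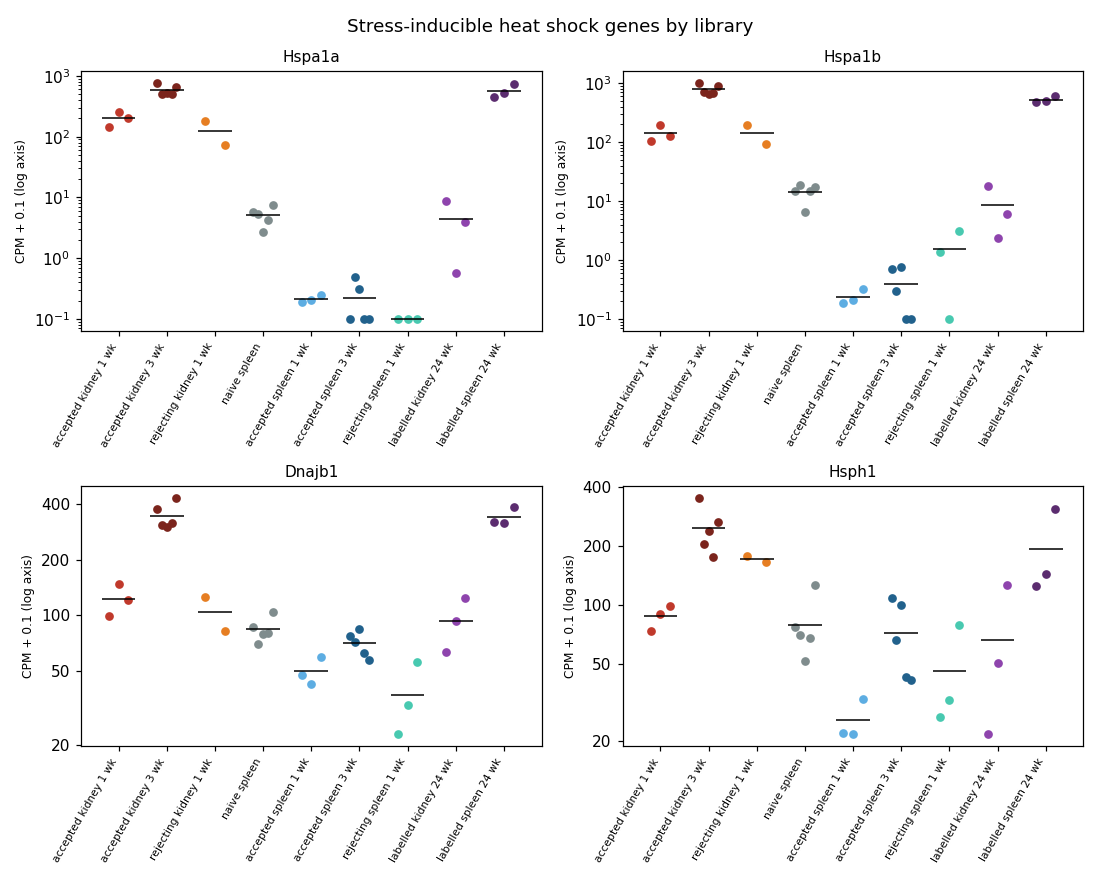
CPM plus 0.1 (log axis) of Hspa1a, Hspa1b, Dnajb1, and Hsph1 in each library (points) of the 9 groups of CD8+ T cells, with the group mean as a line. For Hspa1a the 5 accepted kidney libraries of 3 weeks sit between 511 and 777 CPM, above the 3 of 1 week (145 to 251 CPM), whereas accepted spleens of 1 and 3 weeks are below 1 CPM.

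The growth-linked genes showed no such difference. The mitochondrial chaperonin Hspd1 was lower at 3 weeks in every library, with 282, 273, and 299 CPM at 1 week and 218, 185, 182, 169, and 219 CPM at 3 weeks (log2 ratio -0.55 ± 0.16). Its partner Hspe1 overlapped between the groups, at 388 ± 25.0 CPM (SD, n = 3) and 398 ± 31.5 CPM (SD, n = 5). The log2 ratio was 0.04 ± 0.12 for Hspe1, -0.13 ± 0.14 for Hsp90ab1, and -0.20 ± 0.14 for Cct3. Hsp90aa1 (807 ± 68.1 CPM and 891 ± 133 CPM) and Hspa8 (1518 ± 75.1 CPM and 1618 ± 316 CPM) overlapped between the times as well. Across the 10 genes, 4 were higher and 1 was lower with no overlap, where 46.6% of all 12503 genes tested were higher and 19.2% were lower in this sense. These shares are given as background only. Without accepted kidney library 2 of 1 week or library 1 of 3 weeks, 2 genes were lower (22.6% and 20.5% of all genes).

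Scaling bears on these values. With plain library totals, the median log2 ratio of all genes from 1 to 3 weeks was 0.39, and TMM factors set it to 0.02. Relative to that median, the log2 ratios of the stress-inducible genes were 1.18 for Hspa1a, 2.09 for Hspa1b, 1.11 for Dnajb1, and 1.11 for Hsph1. The growth-linked genes were at -0.94 for Hspd1, -0.36 for Hspe1, -0.52 for Hsp90ab1, and -0.59 for Cct3. With TMM factors, all libraries of 3 weeks were lower for 4 of the 10 genes and higher for the same number of genes as before, where 31.7% of all genes were lower and 30.5% higher.

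**Figure D2:**
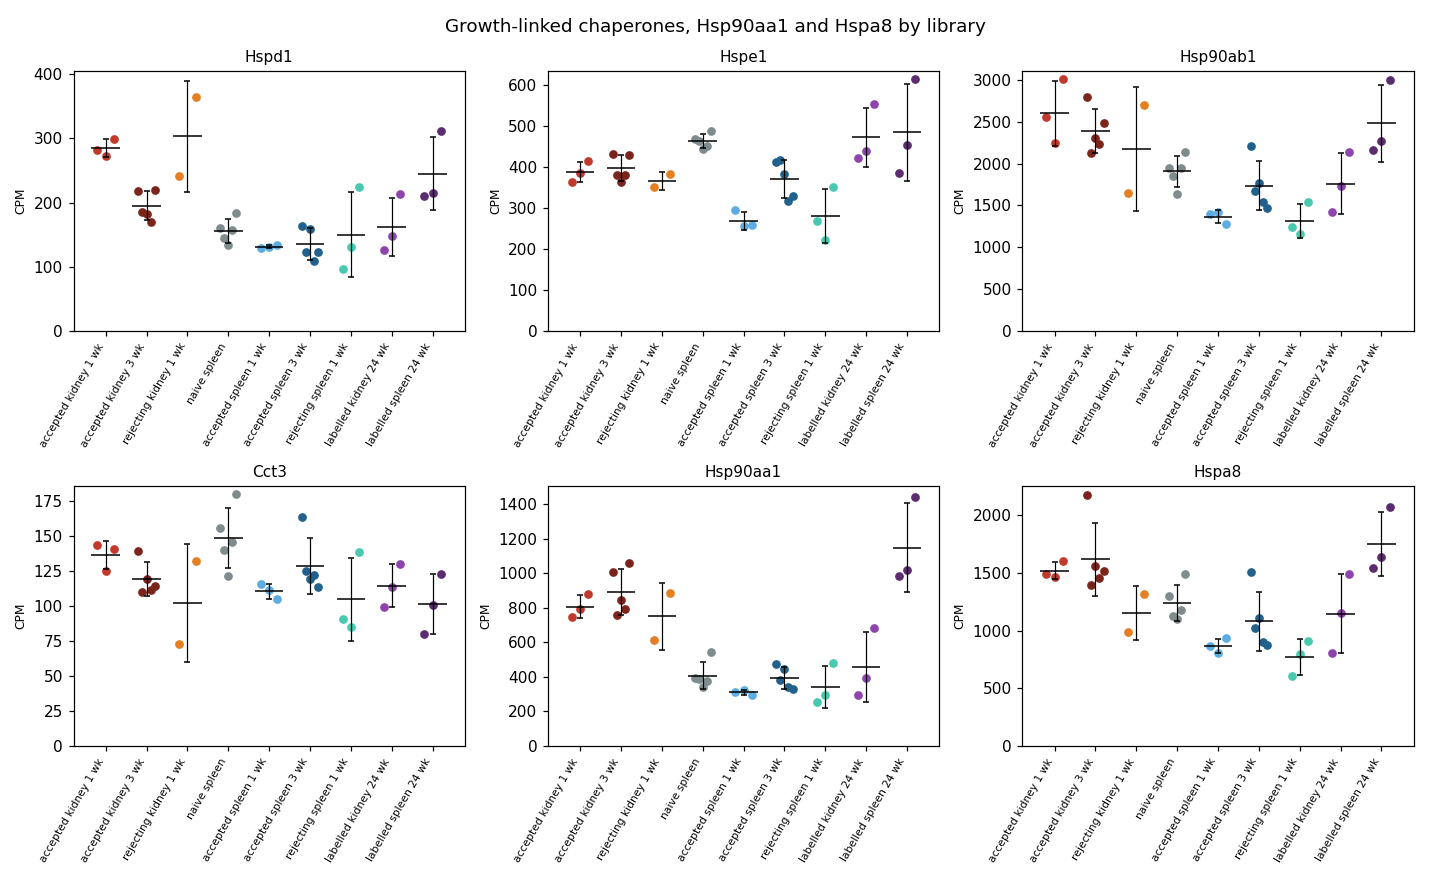
CPM of Hspd1, Hspe1, Hsp90ab1, Cct3, Hsp90aa1, and Hspa8 in each library (points) of the 9 groups, on axes that start at 0, with the group mean ± SD as a line and bar. Hspd1 is at 273 to 299 CPM in accepted kidneys of 1 week and at 169 to 219 CPM at 3 weeks, while the other genes of the plot overlap between these groups.

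The summed level of the 4 stress-inducible genes was 420.5 to 680.4 CPM in accepted kidneys of 1 week and 1675 to 2525 CPM at 3 weeks. That of the 4 growth-linked genes was 3027 to 3871 CPM and 2801 to 3586 CPM, with overlap. The ratio of the sums was thus 0.126 to 0.225 at 1 week and 0.571 to 0.704 at 3 weeks. In the 24-week libraries labelled spleen it was 0.479 to 0.506, and in those labelled kidney 0.0539 to 0.0855. The latter range was near the 0.05975 to 0.0852 of naive spleens and the 0.0484 to 0.0760 of accepted spleens at 3 weeks. Other measures of these libraries moved as well. Mitochondrial genes took 3.69% to 4.49% of UMIs at 1 week and 2.06% to 2.38% at 3 weeks. Cells with a CD8 UMI made up 83.5% to 90.1% and 96.3% to 97.0%, cells with a Cd4 UMI 4.16% to 6.41% and 1.01% to 1.39%, and NK-cell markers summed to 212 to 240.6 and 287 to 395 CPM. In cells with a CD8 UMI and no Cd4 UMI, 4 genes were again higher and 1 lower without overlap (46.9% and 18.5% of all genes), and the part of the other measures was not tested. Dividing cells made up 13.4% to 34.1% of accepted kidney libraries at 1 week and 0.0865% to 0.351% at 3 weeks. Without dividing cells, the log2 ratio from 1 to 3 weeks was 1.56 for Hspa1a, 2.45 for Hspa1b, and -0.48 for Hspd1. Hsp90aa1, which overlapped in all cells (0.14), was then higher in every library of 3 weeks than in those of 1 week (0.31). That value is below the median log2 ratio of all genes in all cells with plain totals (0.39). With TMM factors in all cells Hsp90aa1 was at -0.24. The share of all genes without overlap is not given here for cells not called dividing.

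The cells with an Hspa1a or Hspa1b UMI were counted after each cell was thinned to 1000 UMIs. They made up 17.8% to 24.5% of cells in accepted kidneys of 1 week and 43.9% to 59.0% at 3 weeks. In rejecting kidneys the shares were 13.7% and 24.8%, and in naive spleens 0.982% to 2.82%. Accepted spleens had 6 such cells of 11600 at 1 week and 2 of 5838 at 3 weeks. No cell type of these data is known to lack both genes, so no share that free RNA alone would give was available.

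In accepted kidneys the cells with an Hspa1a or Hspa1b UMI also more often had UMIs of the other inducible genes. At 3 weeks, Dnajb1 was detected in 30.5% to 36.1% of them and in 14.7% to 23.8% of the other cells, and Hsph1 in 21.1% to 32.6% compared with 9.28% to 20.8%. Both were higher in 5 of 5 libraries. Growth-linked genes went the same way in most libraries. Hspe1 was detected in 33.6% to 35.9% and 25.8% to 31.9%, and Hsp90ab1 in 86.5% to 92.5% and 78.6% to 86.4%, each higher in 5 of 5 libraries. Hspd1 (16.4% to 19.8% and 14.3% to 19.5%) and Cct3 (10.4% to 13.7% and 9.23% to 12.1%) were each higher in 4 of 5. Jun, an immediate early gene that responds within minutes to stimulation or stress, was detected in 46.5% to 56.6% and 22.1% to 29.6% of these cells. Fos, another immediate early gene, differed less, at 14.2% to 19.4% and 11.1% to 14.8%. These are the cells in which the choice of genes was made, and no test is given.

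Hspa1a and Hspa1b were almost absent from accepted spleens of 1 and 3 weeks. Over all accepted spleen libraries of 1 week, 4 Hspa1a UMIs and 5 Hspa1b UMIs were counted among 34198434, and over those of 3 weeks 3 and 7 UMIs among 22657066. Accepted kidneys held 10849 Hspa1a UMIs at 1 week and 31996 at 3 weeks. The ratio of kidney to spleen for Hspa1a was 1735 at 1 week (95% interval 677 to 6369) and 4540.3 at 3 weeks (1554 to 22018). For Hspa1b it was 941 (403 to 2899) and 2564 (1244 to 6378). The intervals are exact and cover counting error only.

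The other 8 genes were also higher in accepted kidney than in spleen at 1 week, to a smaller extent. All 10 genes were higher in each of the 3 kidney libraries than in each of the 3 spleen libraries, against 29.9% of all genes. The log2 ratio was 1.76 ± 0.40 for Hsph1, 1.37 ± 0.22 for Hsp90aa1, 1.29 ± 0.19 for Dnajb1, 1.12 ± 0.19 for Hspd1, and 0.93 ± 0.16 for Hsp90ab1. It was 0.81 ± 0.19 for Hspa8, 0.53 ± 0.13 for Hspe1, and 0.30 ± 0.16 for Cct3. The median over all genes was -0.01. With totals that left out ribosomal protein and mitochondrial genes, 9 were higher without overlap (22.7% of all genes), and Cct3 overlapped (0.14 ± 0.15).

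At 3 weeks the kidney and spleen differed in the inducible genes and less in the others. Dnajb1 had 299 to 432 CPM in kidney and 57.5 to 84.4 CPM in spleen (log2 ratio 2.29 ± 0.16), and Hsph1 176 to 353 CPM and 41.1 to 109 CPM (1.78 ± 0.31). Hsp90aa1 was higher in all kidney libraries as well (1.17 ± 0.17), as was Hspd1 (0.52 ± 0.15). Hspa8, Hsp90ab1, Hspe1, and Cct3 overlapped between the groups. Within the 5 pairs of kidney and spleen libraries with the same tag number, Hspa8 and Hsp90ab1 were higher in kidney in 5, Hspe1 in 3, and Cct3 in 2. Cct3 was 119 ± 12.2 CPM (SD, n = 5) in kidney and 129 ± 20.1 CPM in spleen. In all, 6 of the 10 genes were higher without overlap, against 33.9% of all genes, whose median log2 ratio was 0.21. With totals that left out ribosomal protein and mitochondrial genes, 5 were higher (20.4% of all genes), and Hspd1 overlapped (log2 ratio 0.24 ± 0.14).

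Fewer than all cells of the accepted spleen matrices had a CD8 UMI, so these values were also taken from cells with a CD8 UMI and no Cd4 UMI. In those cells the log2 ratio of kidney to spleen at 1 week was 1.33 for Dnajb1, 1.63 for Hsph1, and 1.10 for Hspd1, and at 3 weeks it was 2.28, 1.72, and 0.47. At 3 weeks the Hspd1 libraries of kidney and spleen overlapped in those cells, as they did in all cells with TMM factors. B-cell markers summed to 464 to 929 CPM in accepted spleens of 1 week and to 8.50 to 9.36 CPM in accepted kidneys. Their part in the other values was not tested.

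**Figure D3:**
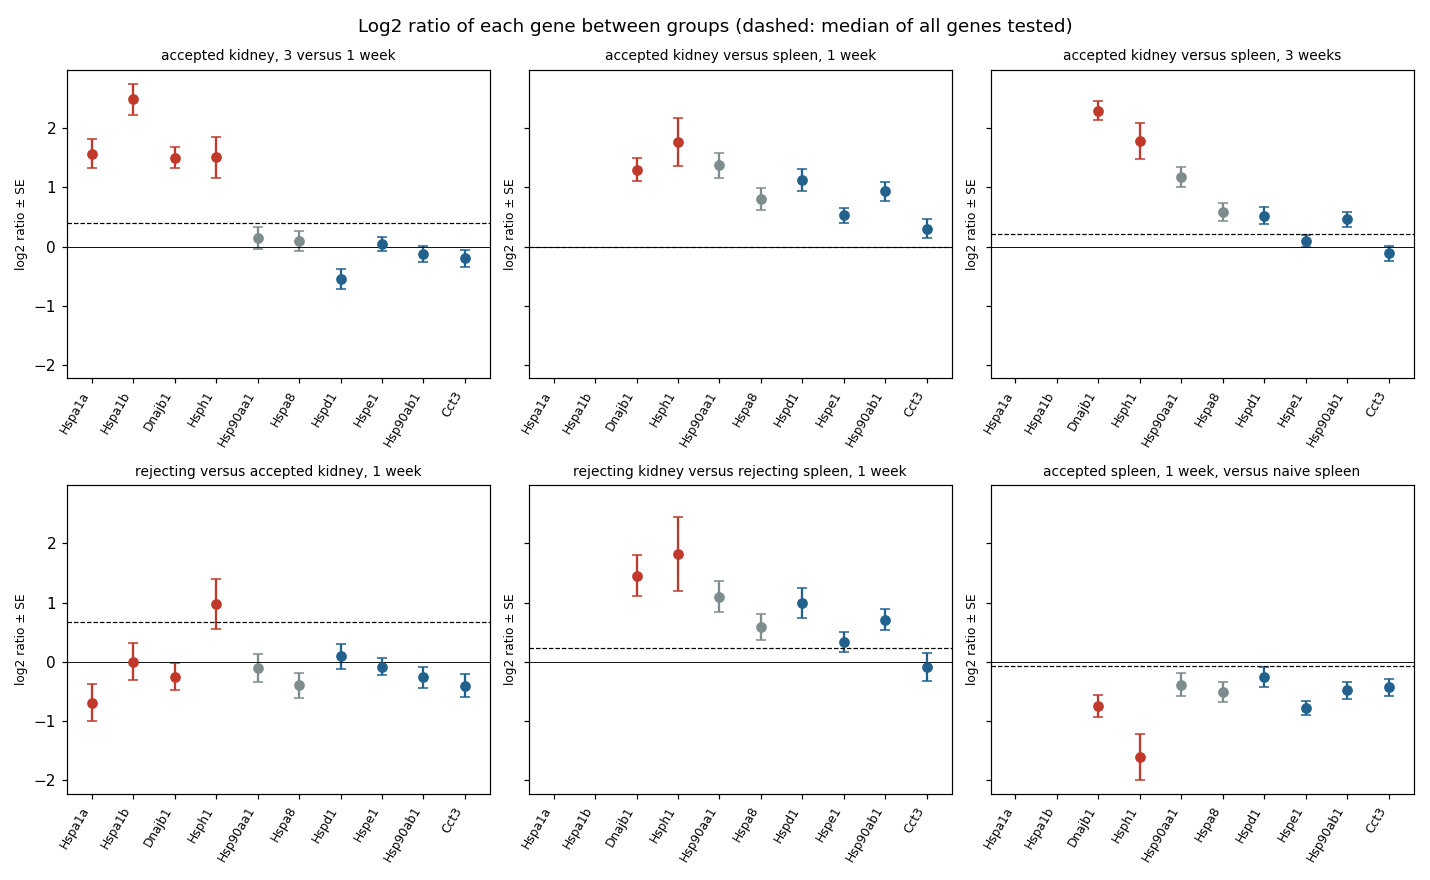
Log2 ratio ± SE of each gene between the groups named above each panel, with stress-inducible genes in red, Hsp90aa1 and Hspa8 in gray, and growth-linked genes in blue. The dashed line is the median of all genes tested, and Hspa1a and Hspa1b are left out where a spleen group is at or near 0. From 1 to 3 weeks in the accepted kidney the red points lie at 1.50 to 2.49 and the blue points at -0.55 to 0.04.

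Naive spleens had more of most of these transcripts than accepted spleens of 1 week. Hspa1a had 2.64 to 7.32 CPM and Hspa1b 6.47 to 18.4 CPM in the 5 naive libraries. The ratio of naive spleen to accepted spleen of 1 week was 42.6 (95% interval 16.2 to 159) for Hspa1a and 97.1 (41.1 to 301) for Hspa1b. Hsph1 had 51.3 to 127 CPM in naive spleens and 21.6 to 33.0 CPM in accepted spleens of 1 week. The log2 ratios here are of accepted to naive spleen, and that of Hsph1 was -1.61 ± 0.38. Dnajb1 (-0.75 ± 0.18), Hspe1 (-0.78 ± 0.12), Hspa8 (-0.52 ± 0.17), Hsp90ab1 (-0.48 ± 0.15), Cct3 (-0.43 ± 0.15), and Hsp90aa1 (-0.39 ± 0.19) were lower in accepted spleens too. Of the 10 genes, 9 were lower without overlap, against 26.3% of all genes, and Hspd1 overlapped at a single pair of close values (133.4 CPM in the highest accepted and 133.2 CPM in the lowest naive library). Immediate early genes went the other way, with a summed level of 1541 to 1839 CPM in naive and 2776 to 4713 CPM in accepted spleens. Cells with a CD8 UMI made up 95.0% to 97.6% of the naive and 41.9% to 49.2% of the accepted libraries, and B-cell markers summed to 27.0 to 55.7 and 464 to 929 CPM. In cells with a CD8 UMI and no Cd4 UMI, 9 genes were again lower without overlap (27.2% of all genes), with log2 ratios of -1.46 for Hsph1, -0.81 for Dnajb1, and -0.62 for Hspe1. Without naive spleen library 5, which was the highest of its group for 9 of the 10 genes, the count stayed at 9 (27.8% of all genes). With TMM factors, Hsp90aa1 and Cct3 overlapped between the groups, as did Hspd1. With totals that left out ribosomal protein and mitochondrial genes, Hspd1 was lower without overlap as well.

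In rejecting kidneys the inducible HSP70 genes were present at levels that overlapped accepted kidneys of the same time. Hspa1a had 179 and 73.7 CPM in rejecting libraries 2 and 3, and Hspa1b had 192 and 91.5 CPM, so that library 2 was above library 3 for both. Hsph1, at 178 and 166 CPM, stood above every accepted library of 1 week (log2 ratio 0.98 ± 0.43). Hspa8, at 984 and 1317 CPM, stood below them (-0.40 ± 0.21). The remaining genes overlapped, with log2 ratios from -0.69 for Hspa1a to 0.09 for Hspd1. That gave 1 gene higher and 1 lower without overlap, against 56% and 16.7% of all genes. In cells not called dividing, 4 genes were lower (Hsp90aa1, Hspa8, Hspe1, and Cct3; 16.8% of all genes) and Hsph1 was higher. Dividing cells made up 8.76% and 46.2% of rejecting and 13.4% to 34.1% of accepted libraries. Cells with a CD8 UMI made up 76.6% and 78.1% of rejecting and 83.5% to 90.1% of accepted libraries. No cell of the rejecting libraries had a Cd4 UMI, compared with 4.16% to 6.41% of cells in the accepted ones. Without rejecting library 2, 3 genes were higher and 4 lower (66.4% and 22.3% of all genes), and without library 3, 6 were lower (25.7%). Mitochondrial genes took 1.39% and 1.42% of UMIs in rejecting and 3.69% to 4.49% in accepted kidneys of 1 week, and ribosomal protein genes 16.8% and 17.6% compared with 26.6% to 27.5%. The part of these shares in the levels of the 10 genes was not tested beyond the totals without them, with which 1 gene was higher and 3 lower (48.7% and 21.7% of all genes).

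This contrast depended strongly on scaling. The median log2 ratio of all genes was 0.68 with plain totals, and with TMM factors none of the 10 genes was higher without overlap and 8 were lower, where 34.2% of all genes were higher and 36.6% lower. The shift followed intron length. The median log2 ratio was 1.47 for 3945 genes with more than 32832 bases of intron, 0.05 for 3947 genes with at most 9779 bases, and -0.18 for 533 genes with no annotated intron, such as Hspa1a and Hspa1b. Hsph1 and Cct3 have 14824 and 18282 bases of intron, and the other members with introns have 1257 to 8193 bases. From 1 to 3 weeks in the accepted kidney the same classes differed less, at 0.63, 0.17, and 0.46. The part of intron length in the values of the 10 genes was not tested. Recipient strain and outcome cannot be told apart in this contrast.

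Within the rejecting mice, as in accepted mice, most of the 10 genes were higher in kidney than in spleen. Cct3 was not, at a mean of 103 CPM in kidney and 105 CPM in spleen. Cells with a CD8 UMI made up 76.6% and 78.1% of the rejecting kidney libraries and 100% of each rejecting spleen library. No Hspa1a UMI was counted among the 1608967 UMIs of rejecting spleens, which allows up to 1.86 CPM, so the kidney level of 119 CPM over both libraries was at least 64.1-fold higher. Hspa1b had 3 UMIs in rejecting spleens, for a ratio of 72.5 (95% interval 24.7 to 352). The log2 ratio was 1.82 ± 0.63 for Hsph1, 1.46 ± 0.35 for Dnajb1, 1.10 ± 0.26 for Hsp90aa1, 0.99 ± 0.25 for Hspd1, 0.71 ± 0.18 for Hsp90ab1, 0.59 ± 0.22 for Hspa8, and 0.33 ± 0.17 for Hspe1. Of the 10 genes, 9 were higher without overlap (28.5% of all genes), and Cct3 overlapped. Hspe1 was separated by 350.86 CPM in the lower kidney and 350.85 CPM in the highest spleen library only. With totals that left out ribosomal protein and mitochondrial genes, 5 were higher (19.1% of all genes). Rejecting spleen library 3 was the highest of its group for 9 of the 10 genes. Rejecting spleen library 2 held 56 cells only.

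Across the 9 groups, accepted kidney at 3 weeks and the 24-week libraries labelled spleen had the 2 highest means for each of the inducible genes. The order below them differed in part. For Hsph1, rejecting kidney (172 CPM) stood above accepted kidney at 1 week (87.3 CPM) without overlap. The full order of mean levels is given for 1 of these genes. For Hspa1a it was accepted kidney at 3 weeks (597 CPM), the 24-week libraries labelled spleen (569 CPM), accepted kidney at 1 week (201 CPM), rejecting kidney (126 CPM), naive spleen (5.04 CPM), the 24-week libraries labelled kidney (4.35 CPM), and the recipient spleens, at 0.123 CPM (3 weeks) and 0.115 CPM (1 week) with none counted in rejecting spleens. From the highest group down to the recipient spleens of 3 weeks, neighbors in this order overlapped, except between the 24-week libraries labelled spleen and accepted kidney at 1 week, between rejecting kidney and naive spleen, and between the 24-week libraries labelled kidney and the recipient spleens of 3 weeks. The recipient spleens, with 0 to 2 Hspa1a UMIs a library, cannot be ordered among themselves at this depth, although the accepted libraries of 1 week had 1 or 2 each and the rejecting ones 0. The mean of the highest group was 9.35-fold that of the lowest for Dnajb1 and 9.71-fold for Hsph1. It was 3.68-fold for Hsp90aa1, 2.27-fold for Hspa8, 2.32-fold for Hspd1, 1.98-fold for Hsp90ab1, 1.80-fold for Hspe1, and 1.47-fold for Cct3. Without the 24-week libraries it was 2.86-fold for Hsp90aa1, 2.10-fold for Hspa8, 1.72-fold for Hspe1, and 1.45-fold for Cct3, and the same as before for the other genes named here.

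The UMIs of Hspa1b and Hspa1a were not in a fixed ratio. The ratio of Hspa1b to Hspa1a UMIs was 0.706, 0.767, and 0.609 in the accepted kidney libraries of 1 week and 1.31, 1.38, 1.24, 1.31, and 1.34 at 3 weeks. Every library of 1 week was below 1 and every library of 3 weeks above it. The rejecting kidneys had ratios of 1.07 (95% interval 0.938 to 1.23) and 1.24 (1.04 to 1.49). Naive spleens, with 38 to 97 UMIs of both genes a library, had ratios of 2.36 to 3.48. The 24-week libraries labelled spleen had ratios of 0.826 to 1.05. The 2 genes are near-identical copies, so how the authors' counting assigned shared reads bears on these ratios, and their separate values are uncertain to that extent.

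**Figure D4:**
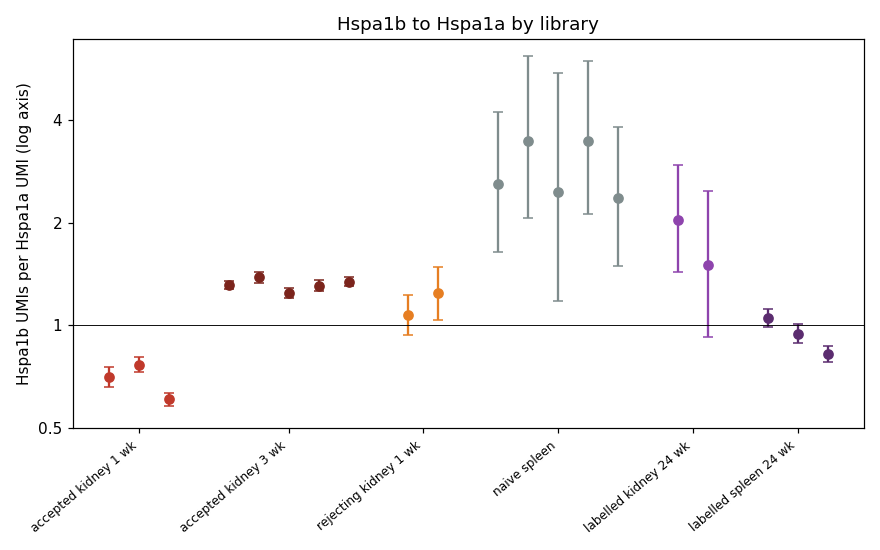
Hspa1b UMIs per Hspa1a UMI (log axis) in each library with more than 20 UMIs of both genes, grouped by tissue and time, with exact 95% counting intervals as bars. The accepted kidney libraries lie at 0.609 to 0.767 at 1 week and at 1.24 to 1.38 at 3 weeks, and naive spleens at 2.36 to 3.48.

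Other genes of the heat shock response and other chaperones were tested between the same groups, over all 12503 genes. From 1 to 3 weeks in the accepted kidney, 7 of 13 other heat shock response genes rose and 1 fell, where 49.9% of all genes rose and 20.8% fell (edgeR quasi-likelihood test with Benjamini-Hochberg adjustment). Their median log2 ratio was 0.55, compared with 0.39 for all genes. The HSP40 gene Dnajb4 rose by 2.15 ± 0.15 on the log2 scale (22.2 to 96.8 CPM, edgeR adjusted p = 2.3e-14), and Dnaja4, another HSP40, by 0.91 ± 0.16 (edgeR adjusted p = 5.7e-06). The HSP90 co-chaperone Chordc1 rose by 0.84 ± 0.24 (edgeR adjusted p = 0.0026), a call lost with TMM factors (0.47). Cacybp, another gene of this class, fell by 0.51 ± 0.18 (edgeR adjusted p = 0.014).

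The cytosolic chaperonin and prefoldin, which hands it new actin and tubulin, went the other way. None of the 13 other CCT and prefoldin genes rose and 11 fell between 1 and 3 weeks, with a median log2 ratio of -0.55. Pfdn4 fell by 1.15 ± 0.11 on the log2 scale (edgeR adjusted p = 3.4e-11), Pfdn1 by 0.97 ± 0.11 (edgeR adjusted p = 3.7e-09), and Cct8 by 0.84 ± 0.11 (edgeR adjusted p = 3.0e-08). Of 12 growth genes, which serve ribosome assembly, nuclear transport, and nucleotide and polyamine synthesis, 1 rose and 10 fell. Ran fell by 1.70 ± 0.14, Nme1 by 1.33 ± 0.12, and Npm1 by 1.11 ± 0.07, with edgeR adjusted p from 6.2e-15 to 8.9e-12. All 10 cell-cycle genes fell.

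The other chaperone classes were mixed between these times. Of 16 co-chaperones and regulators, 7 rose and 4 fell. Hsf1, the factor that switches on the inducible genes, rose from 17.6 to 36.5 CPM, by 1.06 ± 0.10 on the log2 scale (edgeR adjusted p = 5.2e-11). The HSP40 gene Dnajb6 rose by 0.55 ± 0.09 (edgeR adjusted p = 9.7e-07; call lost with TMM factors, 0.18), and the nucleotide exchange factor Bag1 fell by 0.49 ± 0.09 (edgeR adjusted p = 1.8e-05). Of 10 mitochondrial chaperones, 3 rose and 3 fell, among them Grpel1 (down by 1.14 ± 0.09, edgeR adjusted p = 3.0e-13) and Hscb (down by 1.08 ± 0.11, edgeR adjusted p = 1.9e-10). Of 18 genes of the endoplasmic reticulum (ER), 8 rose and 4 fell, with Dnajb9 up by 1.04 ± 0.18 and Sdf2l1 down by 0.89 ± 0.14. In all, 25 of 70 other chaperone genes rose and 23 fell, where 49.9% of all genes rose and 20.8% fell. With TMM factors 8 rose and 37 fell, where 32.6% and 33.5% of all genes did. By class, TMM factors gave 4 up and 2 down of the heat shock response genes, 2 and 8 of the co-chaperones, none and 12 of the CCT and prefoldin genes, none and 6 of the mitochondrial chaperones, and 2 and 9 of the ER genes.

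Immediate early genes, which rise during tissue handling as well as on stimulation, were tested in the same comparison. Of 16 such genes, 7 rose and 4 fell, while 49.9% of all genes rose and 20.8% fell. Jun rose by 2.03 ± 0.25 on the log2 scale (195 to 796 CPM, edgeR adjusted p = 9.7e-09) and Fos by 1.13 ± 0.29 (edgeR adjusted p = 0.00082). Their summed level was 2734 to 3496 CPM at 1 week and 4283 to 4721 CPM at 3 weeks. The part of handling in the levels of the heat shock genes was not tested.

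Between accepted kidney and spleen, most other chaperone genes that changed were higher in the kidney. At 1 week, 42 of 70 were higher and 5 lower, where 27.2% and 25.2% of all genes were. Of the 18 ER genes, 13 were higher, with Sdf2l1 up by 1.58 ± 0.17 and the ER HSP90 gene Hsp90b1 up by 1.11 ± 0.16 on the log2 scale. Of the 13 CCT and prefoldin genes, 8 were higher and none was lower. Hspa4l, an HSP110 gene, was up by 1.24 ± 0.20, Dnajb6 by 0.77 ± 0.10, and Pfdn1 by 0.71 ± 0.13. Fos was lower in the kidney (-1.70 ± 0.32), and 5 of 16 immediate early genes were higher and 6 lower. Odc1, the first enzyme of polyamine synthesis, was up by 1.78 ± 0.14. The edgeR adjusted p of these named genes was at most 3.3e-05.

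At 3 weeks, 34 of 70 were higher in the kidney and 9 lower, against 41.6% and 19.2% of all genes, and with TMM factors 16 were lower (27.6% of all genes, with 29.3% higher). Of the 18 ER genes, 16 were higher and none was lower, with Ddit3, a factor of ER stress, up by 1.29 ± 0.12 and Hsp90b1 by 1.25 ± 0.13 on the log2 scale. Among the 13 heat shock response genes 9 were higher, with Dnajb4 up by 1.54 ± 0.13 and Hspa4l by 1.42 ± 0.16, and Dnajb6 among the co-chaperones was up by 1.33 ± 0.08. Of the CCT and prefoldin genes 3 were higher and 4 lower, among them Cct6a at -0.45 ± 0.11, and with TMM factors 2 were higher and 7 lower. Jun was up by 1.40 ± 0.20. The edgeR adjusted p of these named genes was at most 0.00052.

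Between rejecting and accepted kidneys, 26 of 70 other chaperone genes were higher and 17 lower, against 54% and 13.8% of all genes, and with TMM factors 8 were higher and 37 lower (30.6% and 32% of all genes). Bag3, the co-chaperone of HSP70 in selective autophagy, was up by 2.23 ± 0.30 on the log2 scale (26.3 compared with 5.47 CPM), St13 by 1.39 ± 0.18, and Dnajb6 by 1.20 ± 0.11. The ER genes Pdia4 and Canx were up by 1.55 ± 0.16 and 1.38 ± 0.13. Prefoldin Pfdn2 was down (-1.31 ± 0.14), and 5 of 13 CCT and prefoldin genes were lower and none was higher (13 lower with TMM factors). None of 16 immediate early genes was higher and 12 were lower, with Junb at -2.17 ± 0.23. The edgeR adjusted p of these named genes was at most 4.5e-08.

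In rejecting mice, 27 of 70 were higher in kidney than in spleen and 2 lower, against 21.7% and 9.58% of all genes. Bag3 (2.56 ± 0.58), Hspa4l (1.94 ± 0.46), Bag1 (1.17 ± 0.16), and Hsp90b1 (1.26 ± 0.21) were higher, whereas the ER gene Dnajb9 was lower (-1.43 ± 0.35). The edgeR adjusted p was at most 0.002. In a fit of these 5 libraries alone 12 were higher and 1 lower (10.8% and 5.32% of all genes), and without rejecting kidney library 3 the counts were 13 and 1 (14% and 6.46%).

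The other chaperone classes were also compared between accepted spleens of 1 week and naive spleens, whose shares of cells with a CD8 UMI and B-cell marker levels differed as given above. The part of these in the counts was not tested. Of 13 other heat shock response genes, 1 was higher and 7 were lower in accepted spleens, where 23.3% and 28.1% of all genes were. Dnajb4 was at -1.32 ± 0.16 on the log2 scale, Chordc1 at -0.98 ± 0.25, and Stip1, which links HSP70 to HSP90, at -0.89 ± 0.27. In the other direction, Pfdn1 was up by 0.75 ± 0.12, Grpel1 by 0.76 ± 0.09, and the immediate early phosphatase Dusp1 by 2.54 ± 0.18, with 11 of 16 immediate early genes higher and none lower. In all, 18 of 70 other chaperone genes were higher and 19 lower, and with TMM factors 28 were higher and 14 lower (27.4% and 22.8% of all genes). The edgeR adjusted p of these named genes was at most 0.0057.

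Dividing and other CD8+ T cells were compared within each kidney library of 1 week. This contrast was not used to choose the genes. A cell was called dividing with UMIs of at least 2 of Mki67, Top2a, Pclaf, Stmn1, and Birc5 after thinning to 1000 UMIs, which found 843, 406, and 2870 cells in accepted libraries 1 to 3 and 108 and 439 in rejecting libraries 2 and 3. The HSP90 genes, Hspa8, Hspd1, and Cct3 rose in dividing cells, and the 4 stress-inducible genes and Hspe1 did not pass the test. Of the 10 genes, 5 rose and none fell, where 19.3% of 11372 genes rose and 15.3% fell. When dividing cells were called without thinning, 1 of the 10 genes fell. Which gene this was and the share of all genes that fell with that call are not given here, so the count is not read against a background.

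Hsp90aa1 had 897, 1024, 1028, 839, and 1103 CPM in dividing cells of these 5 libraries and 684, 719.7, 754, 579.6, and 610.1 CPM in the other cells. It rose by 0.54 ± 0.06 on the log2 scale (edgeR adjusted p = 1.1e-06), in 5 of 5 libraries. Hspd1 rose by 0.34 ± 0.07 (edgeR adjusted p = 0.0013), Cct3 by 0.28 ± 0.06 (edgeR adjusted p = 0.0016), Hsp90ab1 by 0.24 ± 0.04 (edgeR adjusted p = 8.6e-05), and Hspa8 by 0.15 ± 0.04 (edgeR adjusted p = 0.0061), each in 5 of 5 libraries. Without the library block, 2 of the 10 genes passed the test (Hsp90aa1 and Hspd1; 13.6% of all genes rose), and with at least 3 marker genes to call a dividing cell, 2 did (Hsp90aa1 and Hsp90ab1; 14.2%). The Hspa8 call was also lost with TMM factors (0.11) and DESeq2 (0.08). Hspd1 rose most in the rejecting kidneys, from 225 to 359 CPM in library 2 and from 278 to 433 CPM in library 3.

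The stress-inducible genes had log2 ratios of -0.06 ± 0.13 for Hspa1a, -0.17 ± 0.14 for Hspa1b, 0.15 ± 0.08 for Dnajb1, and 0.05 ± 0.07 for Hsph1, with edgeR adjusted p from 0.19 to 0.77. Hspa1a had 105 CPM in dividing and 162 CPM in other cells of accepted library 1, but 90.5 and 52.1 CPM in rejecting library 3. It was higher in dividing cells in 2 of 5 libraries. Hspe1 was at 0.05 ± 0.06 (edgeR adjusted p = 0.58), unlike its partner Hspd1, and whether the pair differed was not tested.

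**Figure D5:**
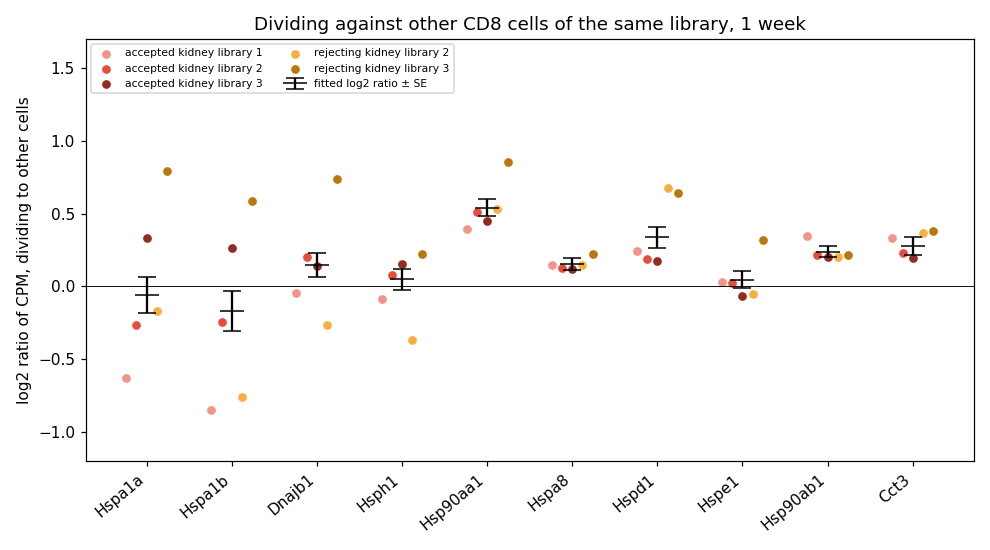
Log2 ratio of CPM in dividing to other CD8+ T cells of the same library, for each of the 10 genes in 3 accepted and 2 rejecting kidney libraries of 1 week (points), with the fitted log2 ratio ± SE as a bar. For Hsp90aa1, Hspa8, Hspd1, Hsp90ab1, and Cct3 all 5 points lie above 0, whereas those of Hspa1a and Hspa1b lie on both sides.

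Other genes of the same classes were counted in this contrast, where 19.3% of 11372 genes rose and 15.3% fell. Of the 13 other CCT and prefoldin genes, 8 rose and 1 fell, of 10 mitochondrial chaperones 6 rose and 1 fell, and of 18 ER genes 11 rose and 1 fell. Of 13 heat shock response genes, 6 rose and 2 fell. Of 16 co-chaperones 4 rose, none fell, and 12 were not called. Growth genes rose in 10 of 12 cases. Immediate early genes did not rise, and 6 of 16 fell. Median log2 ratios were 0.26 for CCT and prefoldin, 0.27 for the mitochondrial and for the ER genes, 0.41 for growth genes, and -0.02 for all genes.

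CD45+ cells outside the CD8 matrices were compared between rejecting kidneys and naive spleens, which also did not enter the choice of genes. Tissue, digestion, strain, and rejection all differ between these groups and cannot be told apart. CD4, NK, and myeloid classes were set by marker UMIs. The rejecting libraries held 164 and 284 CD4, 100 and 127 NK, and 2765 and 4340 myeloid cells. The naive libraries held 463 to 653, 172 to 233, and 106 to 476 cells.

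In CD4 cells, 4 of the 10 genes rose and 1 fell, against 46.3% and 12.5% of 10280 genes. This balance depended on scaling, since with TMM factors or DESeq2 more of the 10 genes fell than rose. The shares of all genes with those settings are not given here, so this change of balance is not read as a result about the 10 genes. Hspa1a had 206 and 76.8 CPM in rejecting libraries 2 and 3 and 8.13 to 25.7 CPM in the 5 naive libraries. It rose by 3.14 ± 0.40 on the log2 scale (edgeR adjusted p = 1.3e-05), and Hspa1b by 2.00 ± 0.37 (edgeR adjusted p = 0.00034). Hsp90aa1 rose by 0.64 ± 0.18 (edgeR adjusted p = 0.0075) and Hspd1 by 0.67 ± 0.22 (edgeR adjusted p = 0.018), but with TMM factors both calls were lost (0.13 and 0.15), as without rejecting library 3 (0.39 and 0.04). The Hspd1 call was also lost without naive library 3 (0.60). Cct3 fell by 0.53 ± 0.20 (edgeR adjusted p = 0.036), a call lost without naive library 1, 4, or 5 or rejecting library 2 (-0.35 to -0.55). The other 5 genes were between -0.30 and 0.75 and did not pass the test.

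In NK cells, 3 of the 10 genes rose and none fell, against 23.4% and 12.1% of 7374 genes. The classes were not alike in NK-cell markers, which summed to 1330 and 1524.5 CPM in rejecting kidneys and to 3771 to 4300 CPM in naive spleens. The part of this in the values below was not tested. No naive library had more than 20 UMIs of Hspa1a and Hspa1b together in its NK cells, so the naive levels rest on few counts. Hspa1a had 177 and 138 CPM in rejecting kidneys and 0 to 11.6 CPM in naive spleens, a rise of 5.25 ± 0.46 on the log2 scale (edgeR adjusted p = 1.8e-09). Hspa1b had 205 and 117 CPM and 0 to 23.9 CPM, a rise of 3.63 ± 0.43 (edgeR adjusted p = 2.5e-07). Hspe1 rose by 0.67 ± 0.20 (edgeR adjusted p = 0.012), but by 0.14 without rejecting library 2, a call lost. Without naive library 5, 6 genes rose (23.5% of all genes).

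In myeloid cells none of the 10 genes passed the edgeR test, against 27.3% of 10179 genes that rose and 17.5% that fell, and none had an unadjusted p under 0.05. DESeq2 also called 0. Hspa1a had 165 and 85.0 CPM in rejecting kidneys and 15.3 to 142 CPM in naive spleens, so the groups overlapped. The 10 log2 ratios lay between -0.18 and 0.67. Without naive library 5, 1 gene rose (27.8% of all genes).

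Within rejecting kidney library 2 the level of Hspa1a was close across the classes, and in library 3 it was highest in NK cells. In library 2 Hspa1a was at 179 CPM in CD8, 206 CPM in CD4, 177 CPM in NK, and 165 CPM in myeloid cells, and in library 3 at 73.7, 76.8, 138, and 85.0 CPM. The ratio of Hspa1b to Hspa1a differed between CD8 and myeloid cells within each library. It was 1.07 (95% interval 0.938 to 1.23) in CD8 and 0.749 (0.686 to 0.817) in myeloid cells of library 2, and 1.24 (1.04 to 1.49) and 0.774 (0.704 to 0.851) in library 3. In CD4 and NK cells, with fewer UMIs, the intervals overlapped those of both CD8 and myeloid cells in each library. The intervals cover counting error only. Myeloid markers summed to 2326 and 2754 CPM in CD4 and to 1548 and 2214 CPM in NK cells of rejecting kidneys, compared with 62.2 to 267 CPM and 338 to 753 CPM in naive spleens. They summed to 7287 and 10622 CPM in myeloid cells of rejecting kidneys. The part of free or myeloid RNA in the CD4 and NK values was not tested.

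Most of the 10 genes varied with Hspa1a across the 32 libraries, and Cct3 did not. Spearman's rho with Hspa1a was 0.95 for Hspa1b, 0.91 for Dnajb1, 0.83 for Hsp90aa1, 0.78 for Hspa8 and for Hsp90ab1, 0.77 for Hsph1, 0.68 for Hspd1, 0.47 for Hspe1, and 0.00 for Cct3. In the 26 libraries without those of 24 weeks it was 0.93 for Hspa1b and for Dnajb1, 0.83 for Hsp90aa1, 0.80 for Hsp90ab1, 0.78 for Hspa8 and for Hsph1, 0.69 for Hspd1, 0.48 for Hspe1, and 0.11 for Cct3. Across all 32 libraries, among 2705 other genes that averaged 50 CPM or more, those most like Hspa1a were Cst7 (0.93), Tmed5 (0.86), Cox8a (0.86), Sla2 (0.86), and Polr2k (0.83). Those most like Hspd1 were Arf1 (0.90), Gpbp1 (0.85), Impa1 (0.85), Hnrnpa2b1 (0.82), and the ER chaperone Hsp90b1 (0.80). The libraries share tissues, times, and depth, so these values describe the groups of the study and carry no test.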

How the data were processed

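The authors mapped reads with Cell Ranger to mm10 (per the labels; version not given in the sources used here), removed cells on UMI number, mitochondrial share, and number of genes, assigned cell types manually, and deposited raw UMI counts per cell. The limits of these filters are not stated, and no doublet caller was run here. The CD8+ T-cell matrices and the CD45+ matrices of rejecting kidney and naive spleen were used. Libraries were told apart by barcode tags, and groups were taken from the labels. The study's methods count each mouse as a sample, and their replicate numbers equal those of the tags in accepted mice. For rejecting and naive libraries, and for whether a kidney and a spleen with the same number share a mouse, this is not given in the sources used here. The p-values measure the spread between libraries. Of 496 pairs of libraries, 1 shared more than 1% of the barcodes of the smaller (1 barcode of 56 cells).

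UMIs were summed per library (153266 to 25960721 UMIs) and scaled to CPM by plain totals. edgeR 4.0.16 (R 4.3.3; filterByExpr, quasi-likelihood test, Benjamini-Hochberg, adjusted p threshold 0.05) was fitted over genes present in all 9 matrices, with all 9 CD8 groups in 1 fit, with the library as a block for dividing cells, and per class for CD45+ cells. Its scripts were first tested on simulated counts. The SE of an edgeR log2 ratio was taken as its absolute value divided by the square root of the quasi-likelihood F statistic. For the 10 genes between tissues and times it is a description and not a test. Exact 95% intervals used scipy 1.17.1, a count of 0 was taken to allow 3 counts, and intervals cover counting error only. CD4 cells had a Cd3 and a Cd4 UMI without CD8 or Cd79a, NK cells an Ncr1 UMI without Cd3 or Cd79a, and myeloid cells at least 2 of Lyz2, Csf1r, Cd68, Cst3, and Itgam without those. The 10 genes, the lists, and the tests were chosen with earlier results of these data known. Of each list, the genes named are among the up to 3 largest and 3 smallest log2 ratios past the threshold with at least 20 CPM in a group. Jun and Fos in cells with heat shock UMIs lie outside this rule and were chosen after the data were seen.

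Labels give no replicate numbers. The numbers in the tags of kidney and spleen libraries were checked as pairs by the correlation of deviations from group means. At 3 weeks all 5 were above 0.1 (0.103 to 0.521), and these numbers were used to describe pairs. At 1 week they were 0.229, 0.0521, and 0.281, so not all were above 0.1. The values of the 2 times overlapped, so they do not show that 1 time is paired and the other is not. The main tests used no pairing. Alternatives were TMM factors, DESeq2 1.42.0, no filter, totals without ribosomal protein and mitochondrial genes, 2 groups only, no 24-week groups, CD8 cells without Cd4 UMIs, no dividing cells, other calls of dividing cells, and leaving out each library.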

Additional observations from a re-analysis of the deposited data

Results flagged for a closer look

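Of 60 groups of 5 libraries examined, 8 had a library set apart from the other 4. Chance gives about 1 in 20 for independent groups. These groups share libraries, and most of the 10 genes vary together, so the count cannot be set against that rate. In accepted kidneys of 3 weeks, Hspa8 was at 2172 CPM in library 1 and at most 1555 CPM in the others. In accepted spleens of 3 weeks, Cct3 was at 163.9 CPM in library 1 and at most 125.2 CPM in the others. These libraries carry the same number in their tags. Library 1 was the highest for 7 of the 10 genes in kidney and for 6 in spleen.

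The other 6 were all naive spleen library 5. Hsp90aa1 was at 541 CPM in its CD8 cells (at most 394 CPM in the other 4 libraries), at 682 CPM in its CD4 cells (at most 449.6 CPM), and at 806 CPM in its NK cells (at most 515 CPM). Hspd1 was at 217 CPM in its CD4 cells (at most 157 CPM). Dnajb1 was at 162 CPM (at most 91.7 CPM) and Hsp90ab1 at 2191 CPM (at most 1627 CPM) in its NK cells.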

How the results depend on the processing

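The directions of the 10 genes between tissues and times depended most on scaling. With TMM factors, genes lower without overlap numbered 4 from 1 to 3 weeks in the accepted kidney, and 0 were higher and 8 lower between rejecting and accepted kidney. Totals without ribosomal protein and mitochondrial genes gave 3 lower in that contrast and 5 higher between rejecting kidney and spleen, and cells not called dividing gave 4 lower in the former. For the other chaperone genes, TMM factors gave 8 up and 37 down from 1 to 3 weeks, 16 down between accepted kidney and spleen at 3 weeks, 8 up and 37 down between rejecting and accepted kidney, and 28 up between accepted and naive spleen. DESeq2 gave 9 and 35, 16, 8 and 34, and 28 in the same order, and 4 down between rejecting kidney and spleen. Totals without ribosomal protein and mitochondrial genes gave 8 down at 1 week and 18 at 3 weeks between accepted kidney and spleen, 26 down between rejecting and accepted kidney, and 5 down between rejecting kidney and spleen, where a fit of 2 groups gave 12 up and 1 down. The cause was not tested. Leaving out each library moved the genes of interest from 1 to 2 lower (1 to 3 weeks), from 1 to 3 higher and 1 to 6 lower (rejecting against accepted kidney), and from 0 to 1 lower (rejecting kidney against spleen), where 13 to 33 other chaperone genes were up and 1 to 2 down.

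A fit without the 24-week groups, added after the data were seen, lost no call of a named gene in the 6 contrasts, with 18 to 43 other chaperone genes up and 2 to 22 down. Kidney and spleen libraries with the same tag number all had correlations above 0.1 at 3 weeks. With the number as a block, 41 other chaperone genes were up and 10 down at 3 weeks (34 and 9 without it). At 1 week, where 1 of the 3 correlations was not above 0.1, 45 were up and 5 down (42 and 5 without it). The block changed no call of a named gene. At 3 weeks 3 of 5 kidney libraries, and at 1 week 2 of 3, correlated best with the spleen library of their own number.

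Between dividing and other cells, 2 genes rose without the library block and 2 with at least 3 marker genes, and 1 fell without thinning. The share of all genes is not given beside the count without thinning. Genes that did not pass the test changed sign, Hspe1 to -0.066 with at least 3 marker genes and -0.019 with DESeq2, and Hsph1 to -0.031 with DESeq2. Leaving out each library gave -0.24 to 0.13 for Hspa1a, -0.36 to 0.019 for Hspa1b, and -0.013 to 0.084 for Hspe1. In CD4 cells TMM factors and DESeq2 each gave 2 up and 4 down, and leaving out each library 2 to 5 up and 0 to 3 down. It gave 2 to 6 up in NK cells and 0 to 1 up in myeloid cells. Shares of all genes are not given beside these counts of CD4, NK, and myeloid cells, so the counts are not read against a background. Libraries of few cells (56 in rejecting spleen library 2) and the 2 rejecting kidneys limit what these contrasts can show.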
